A study of Mus musculus with 4 samples.

Results

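The complement genes described here are 10 mouse genes of the complement system, taken by their symbols: the components C1qa, C1qb, C3, Cfb and Cfp, the receptors C3ar1 and C5ar1, and the membrane regulators Cd55, Cr1l and Cd59a. All 10 were found among the 24421 genes of the count files, and all 10 passed the filter on low counts that left 16322 genes for testing. They were selected on their counts in omental tumor and spleen, scaled by each library's gene total, so their own differences between the tissues are given as a description and support no further statement.

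The RNA came from regulatory T cells (Tregs) of B6 Foxp3-DTR/GFP mice, in which a fusion of the diphtheria toxin receptor and green fluorescent protein is made under the control of Foxp3. Tumor-free CD45.1- mice of this strain were partners in parabiosis, an operation that gives a pair of mice a shared circulation. Each was joined to a CD45.1+ mouse that carried intraperitoneal EG7.1.15 tumor cells, and tissues were taken at day 14 after the injection. Tregs of the partner were sorted from the omental tumors and the spleen of the tumor-bearing mouse as live cells without CD45.1 and B220, with CD45.2, CD4, CD25 and the green reporter. Both tissues came from a tumor-bearing host, and each tissue gave 2 libraries (mouse 2 and mouse 3). The comparison asks how Tregs that entered omental tumors differ from those that entered the spleen.

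Complement is a cascade of plasma proteins that tags particles for uptake, calls in leukocytes and punches holes in membranes. The classical pathway starts with C1q, the alternative pathway amplifies through factor B and properdin, and both cut C3 and then C5, which frees the small peptides C3a and C5a. These peptides act on G protein-coupled receptors, which are best known from neutrophils, monocytes and macrophages. Host cells carry regulators that stop the cascade on their own surface, and complement made and sensed by T cells themselves has been studied as a modulator of T cell responses.

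Counts in genes were lower in the omental tumor libraries (6660230 in mouse 2 and 3764508 in mouse 3) than in those of spleen (9989005 and 13598631). Levels are CPM, counts scaled to a common library size with TMM factors, and fold changes are fitted log2 fold changes of omental tumor over spleen with their SE. A gene was called when edgeR's quasi-likelihood test gave a Benjamini-Hochberg adjusted p under 0.05. Among all genes tested, 1.43% were called, 1.16% as higher and 0.263% as lower in omental tumor.

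The sequences upstream of 3 of the genes are shown because these genes stand for the patterns in the data: C3 was higher in omental tumor in both mice, Cd55 was lower in both, and C1qb went opposite ways in the 2 mice. Each is the 250 bases before the RefSeq start of the gene (build GRCm38.p6, minus strand for all 3), read 5′ to 3′ along the gene. C3 is at chr17:57228137-57228386, Cd55 at chr1:130462745-130462994 and C1qb at chr4:136886201-136886450. No exon of GENCODE M21 lies in these windows, and that of Cd55 is inside a longer RefSeq gene model. Capitals mark matches to short motifs of factors active in myeloid and inflamed cells.
C3: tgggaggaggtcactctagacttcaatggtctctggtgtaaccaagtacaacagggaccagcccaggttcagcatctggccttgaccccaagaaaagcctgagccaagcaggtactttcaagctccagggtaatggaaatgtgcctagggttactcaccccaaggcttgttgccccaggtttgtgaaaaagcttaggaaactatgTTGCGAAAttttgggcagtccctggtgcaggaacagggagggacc
Cd55: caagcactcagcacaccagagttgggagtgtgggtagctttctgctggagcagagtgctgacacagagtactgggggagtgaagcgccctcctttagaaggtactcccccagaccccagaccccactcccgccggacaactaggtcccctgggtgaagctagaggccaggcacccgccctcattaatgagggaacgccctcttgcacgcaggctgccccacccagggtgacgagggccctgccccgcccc
C1qb: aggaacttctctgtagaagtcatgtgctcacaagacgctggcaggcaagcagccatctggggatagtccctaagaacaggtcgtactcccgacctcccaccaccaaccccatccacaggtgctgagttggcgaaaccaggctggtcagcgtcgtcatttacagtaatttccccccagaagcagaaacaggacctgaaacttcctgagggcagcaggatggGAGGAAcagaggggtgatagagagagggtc
The motifs searched, on both strands, were GAGGAA (PU.1), TTGCNNAA (C/EBP), TTCNNNGAA (STAT), TGANTCA (AP-1) and the NF-kB consensus. The C3 window held 1 TTGCNNAA match, starting 45 bases before the gene start, a motif present in 9.57% of the 32817 RefSeq windows of the same length. The C1qb window held 1 GAGGAA match 30 bases before the start, a motif in 23.3% of windows. The Cd55 window held none of the 5 motifs. RefSeq windows were matched for 8 of the 10 genes. Of these, Cd59a also held a GAGGAA match (62 bases before the start). C3ar1 held a TGANTCA match (22 bases before it), a motif in 6.75% of windows, and its window overlaps an exon of C3ar1. No member window matched the STAT motif (7.01% of windows) or the NF-kB consensus (7.25%).

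Of the 10 genes, 2 were called higher in omental tumor, C5ar1 and C3, and none lower, beside the background of 1.16% and 0.263%. In 4 of the 10 (C3, Cfb, C5ar1 and Cd59a) both omental libraries stood above both spleen libraries, as did 16.4% of all genes tested. In 2 (Cd55 and Cr1l) both spleen libraries stood above both omental ones, as did 25.4% of all genes. In the other 4 the tissues overlapped. The median log2 fold change of the 10 was 0.56, against 0.13 over all genes tested.

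**Figure D1:**
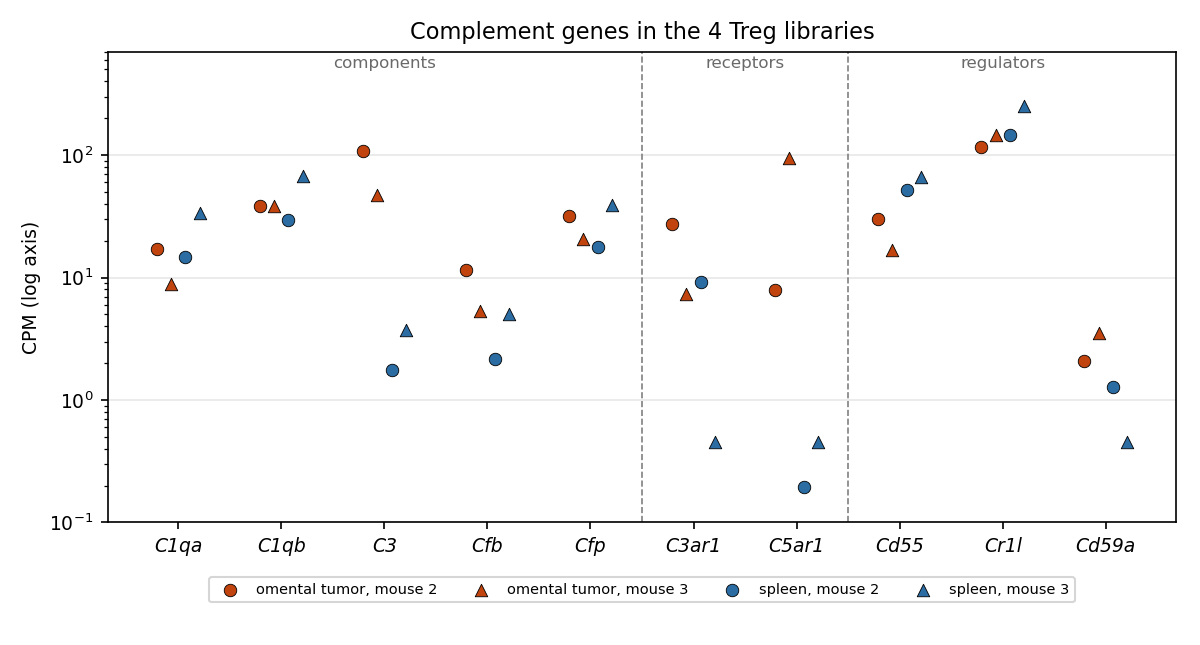
CPM of each complement gene (log axis) in every library, with omental tumor in red, spleen in blue, circles for mouse 2 and triangles for mouse 3. The red points of C3 and C5ar1 lie far above the blue ones, those of Cd55 lie below them, and C1qa, C1qb, Cfp and C3ar1 overlap.

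C3 encodes the central component on which the pathways converge (chromosome 17, 57203970 to 57228136). Its counts were 823 in omental tumor and 18 in spleen of mouse 2, and 187 and 41 in mouse 3. On the CPM scale it stood at 108 and 47.3 in omental tumor of mouse 2 and mouse 3, and at 1.76 and 3.75 in spleen. Both omental libraries were therefore well above both spleen libraries, with the higher level in mouse 2. Omental tumor averaged 77.7 ± 42.9 CPM against 2.76 ± 1.41 CPM for spleen (SD, n = 2), a log2 fold change of 4.81 (SE 0.89). Within mice the CPM ratio was 61.3 in mouse 2 (95% exact interval 38.6 to 104) and 12.6 in mouse 3 (8.96 to 18.2). These intervals and those below cover counting error at most. With the spleen library of mouse 2 left out, C3 kept a log2 fold change of 4.31 and lost its call.

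The alternative pathway genes beside C3 were less far apart. Cfb, factor B, supplies the protease of the alternative pathway C3 convertase (chromosome 17, 34856374 to 34862518). It stood at 11.4 and 5.32 CPM in omental tumor of mouse 2 and mouse 3, and at 2.15 and 5.03 CPM in spleen. The omental library of mouse 3 was barely above the spleen library of the same mouse, which left the tissues barely separated. The ratio was 5.30 in mouse 2 (3.29 to 8.90) and 1.06 in mouse 3 (0.607 to 1.78), and the fitted log2 fold change was 1.24 (SE 0.98). Left out in turn, single libraries moved it between 0.54 (without omental tumor of mouse 2) and 2.10 (without spleen of mouse 3), with 0.68 without spleen of mouse 2. The Cfb locus overlaps the gene model Gm20547 on the same strand, and reads shared between them cannot be assigned to 1 gene.

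Cfp, properdin, stabilises that convertase and is made by leukocytes (chromosome X, 20925454 to 20931555). It stood at 31.8 and 20.5 CPM in omental tumor and 17.8 and 38.9 CPM in spleen, in the order mouse 2 and mouse 3. The tissues overlapped, since Cfp was 1.78 times higher in omental tumor in mouse 2 (1.47 to 2.17) and 1.90 times higher in spleen in mouse 3 (1.49 to 2.44). The fitted log2 fold change was -0.11 (SE 0.77), and its sign turned under 5 of 13 alternative settings, among them without omental tumor of mouse 3 (0.07) and without spleen of mouse 3 (0.75).

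C1qa and C1qb encode the A and B chains of C1q, which recognises antibody complexes and dying cells. Both lie on chromosome 4, C1qa at 136895917 to 136898803 and C1qb at 136880129 to 136886187. C1qa stood at 17.2 and 8.86 CPM in omental tumor of mouse 2 and mouse 3, and at 14.8 and 33.9 CPM in spleen. C1qb stood at 38.2 and 38.5 CPM in omental tumor, and at 29.6 and 67.4 CPM in spleen. Both had their highest level in the spleen of mouse 3, and the omental level lay close to or above spleen only in mouse 2.

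The mouse 2 ratio of omental tumor to spleen was 1.16 for C1qa (0.914 to 1.48) and 1.29 for C1qb (1.10 to 1.52). In mouse 3 spleen was higher, by 3.82 times for C1qa (2.70 to 5.57) and 1.75 times for C1qb (1.47 to 2.10). The fitted log2 fold changes were -0.88 (SE 0.82) and -0.34 (SE 0.75). Without the spleen library of mouse 3 they were -0.02 and 0.64, so that library decided the size of the first and the sign of the second. Without the omental library of mouse 2 C1qa was at -1.47, and leaving out spleen of mouse 2 put it at -1.43 and C1qb at -0.87. With upper-quartile scaling C1qb turned to 0.20.

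The gene of the C chain, C1qc, which is not among the 10, stood at 28.9 and 29.6 CPM in omental tumor and 26.9 and 57.1 CPM in spleen. As for C1qb, spleen of mouse 3 was the highest and spleen of mouse 2 the lowest. Reads of C1qb per read of C1qc were 1.32 and 1.30 in the omental libraries of mouse 2 and mouse 3, against 1.10 and 1.18 for spleen. All 4 values have overlapping 95% exact intervals, the lowest bound being 0.930 and the highest 1.67. Reads of C1qb per read of C1qa were 2.22 (1.80 to 2.75) in omental tumor of mouse 2, 2.00 (1.64 to 2.45) and 1.99 (1.76 to 2.26) in spleen of mouse 2 and mouse 3, and 4.34 (2.99 to 6.46) in omental tumor of mouse 3. C1qa was thus low relative to C1qb in that 1 library, the one with the fewest counts in genes.

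The peptide receptors followed different libraries. C5ar1, the C5a receptor that draws and activates neutrophils and macrophages (chromosome 7, 16246743 to 16259540), had 60 counts in omental tumor and 2 in spleen of mouse 2, and 371 and 5 in mouse 3. These were 7.88 and 93.9 CPM in omental tumor, against 0.196 and 0.458 CPM for spleen. Both omental libraries were above both spleen libraries, and that of mouse 3 was far above that of mouse 2. The gene passed the filter on low counts through the omental libraries alone. The ratio was 40.2 in mouse 2, with a counting interval of 10.7 to 340 because spleen held so few reads, and 205 in mouse 3 (87.2 to 636). Means were 50.9 ± 60.8 and 0.327 ± 0.185 CPM (SD, n = 2), a log2 fold change of 7.19 (SE 1.11). Without the omental library of mouse 3 it fell to 4.43 and the call was lost.

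C3ar1, the receptor of C3a (chromosome 6, 122847138 to 122856161), stood at 27.6 and 7.34 CPM in omental tumor of mouse 2 and mouse 3, and at 9.20 and 0.458 CPM in spleen. It was higher in omental tumor than in spleen of the same mouse in both mice, but the tissues overlapped because the spleen of mouse 2 lay above the omental tumor of mouse 3. The ratio was 3.00 in mouse 2 (2.34 to 3.86) and 16.0 in mouse 3 (6.14 to 53.1), the latter over only 5 spleen counts. The fitted log2 fold change was 1.88 (SE 0.91) and became 2.59 with the mouse as a replicate block, without a call in either. Single libraries left out gave 0.62 (omental tumor of mouse 2), 1.01 (spleen of mouse 3), 2.45 (omental tumor of mouse 3) and 5.15 (spleen of mouse 2). Mouse 2 held the higher C3ar1 level in each tissue, whereas C5ar1 was higher in mouse 3 in each tissue, in spleen on only 2 and 5 reads.

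Of the regulators, the decay-accelerating factor Cd55 was lower in omental tumor in both mice. The protein breaks up C3 and C5 convertases on the cell that carries it (chromosome 1, 130439027 to 130462744). Its counts were 230 and 529 in omental tumor and spleen of mouse 2, and 66 and 721 in mouse 3. It stood at 30.2 and 16.7 CPM in omental tumor and at 51.8 and 66.0 CPM in spleen, so the tissues did not overlap. Spleen was 1.71 times higher in mouse 2 (1.47 to 2.01) and 3.95 times higher in mouse 3 (3.07 to 5.16). The Cd55 locus overlaps the gene model Gm16083 on the opposite strand, and the libraries do not mark strand. The log2 fold change of -1.32 (SE 0.76) was not called, and it stayed between -1.83 and -0.84 under all 13 alternative settings.

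Cr1l, also known as Crry, is the widely expressed rodent cofactor for the cleavage of C3b and C4b (chromosome 1, 195097382 to 195131586). It stood at 117 and 145 CPM in omental tumor and 146 and 253 CPM in spleen of mouse 2 and mouse 3. The spleen library of mouse 2 was close to the omental library of mouse 3, and the separation of the tissues was thin. Spleen was 1.24 times higher in mouse 2 (1.14 to 1.35) and 1.75 times higher in mouse 3 (1.60 to 1.91), with a log2 fold change of -0.60 (SE 0.75). It was 0.14 without the spleen library of mouse 3 and -0.06 with upper-quartile scaling.

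Cd59a, which blocks the membrane attack complex (chromosome 2, 104095801 to 104115354), was the lowest of the regulators, with 16 and 14 counts in omental tumor and 13 and 5 in spleen. At 2.10 and 3.54 CPM against 1.27 and 0.458 CPM both omental libraries were above both spleen libraries. The interval of the ratio included no difference in mouse 2 (1.65, 0.745 to 3.73) and lay above it in mouse 3 (7.75, 2.64 to 27.5). The fitted log2 fold change was 1.66 (SE 1.24), between 1.20 (without omental tumor of mouse 3) and 2.51 (without spleen of mouse 2) when single libraries were left out. The regulators thus did not share a direction, with Cd55 and Cr1l on the spleen side and the sparse Cd59a on the omental side.

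**Figure D2:**
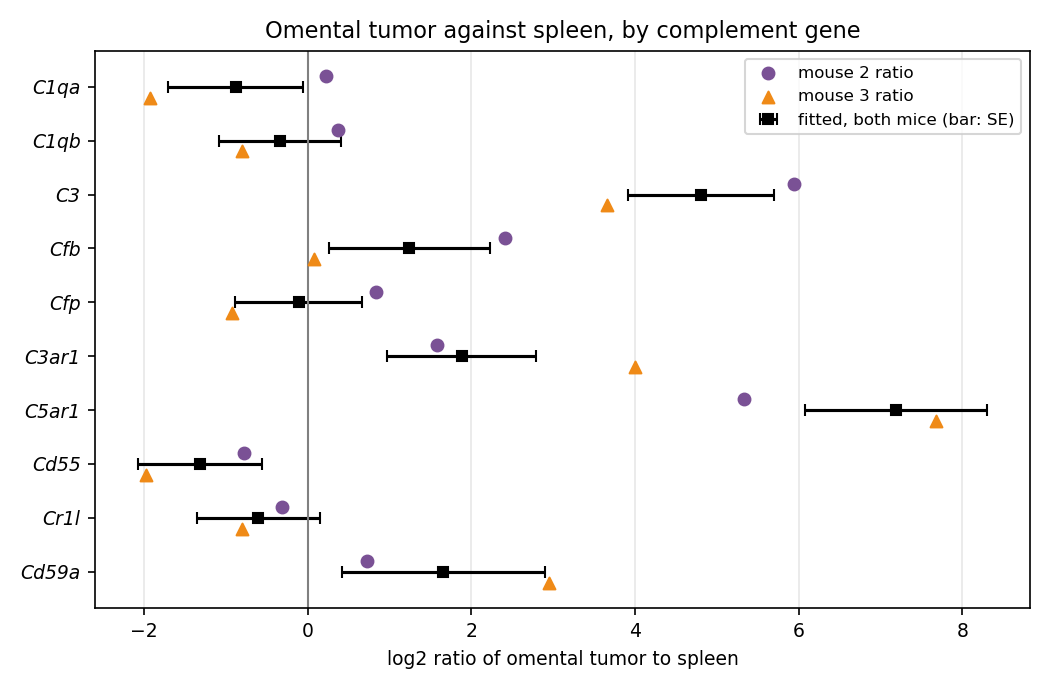
Log2 ratio of omental tumor to spleen for each gene, with the fitted value of both mice and its SE as black squares and bars, the ratio in mouse 2 as circles and that in mouse 3 as triangles. C3 and C5ar1 lie far to the right in both mice, Cd55 and Cr1l to the left in both, and C1qa, C1qb and Cfp have their mice on opposite sides of 0.

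To compare levels among the 10 genes, CPM were divided by transcript length, as CPM per kilobase of the longest principal transcript in GENCODE M21. On this scale Cr1l was first of the 10 in all 4 libraries, at 71.1 and 87.9 in omental tumor against 88.1 and 154 in spleen of mouse 2 and mouse 3. C1qb had rank 2 in 3 libraries and rank 3 in omental tumor of mouse 3, where C5ar1 was just above it, at 37.0 against 35.4. In spleen of mouse 2 and mouse 3 C5ar1 had ranks 10 and 9 of 10, at 0.0771 and 0.180, and C3 ranks 9 and 7, at 0.343 and 0.730. In omental tumor C3 had rank 3 in mouse 2 at 21.0 and rank 5 in mouse 3 at 9.22.

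In that order the neighbours often lay within their spread. Cfp (19.4 and 12.5) and C3 overlapped in omental tumor, and C1qa (16.5 and 8.52) overlapped with Cfp and with Cd55 (11.9 and 6.60). The order depends on the transcript taken as the length. The principal transcript of Cr1l has 1651 bases and all its annotated exons together 10349. With the merged exons Cr1l fell to 11.3 and 14.0 in omental tumor against 14.1 and 24.5 in spleen, rank 5 in mouse 2 omental tumor and rank 3 in the other libraries. C1qb was then first in 3 libraries and C5ar1 first in omental tumor of mouse 3.

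**Figure D3:**
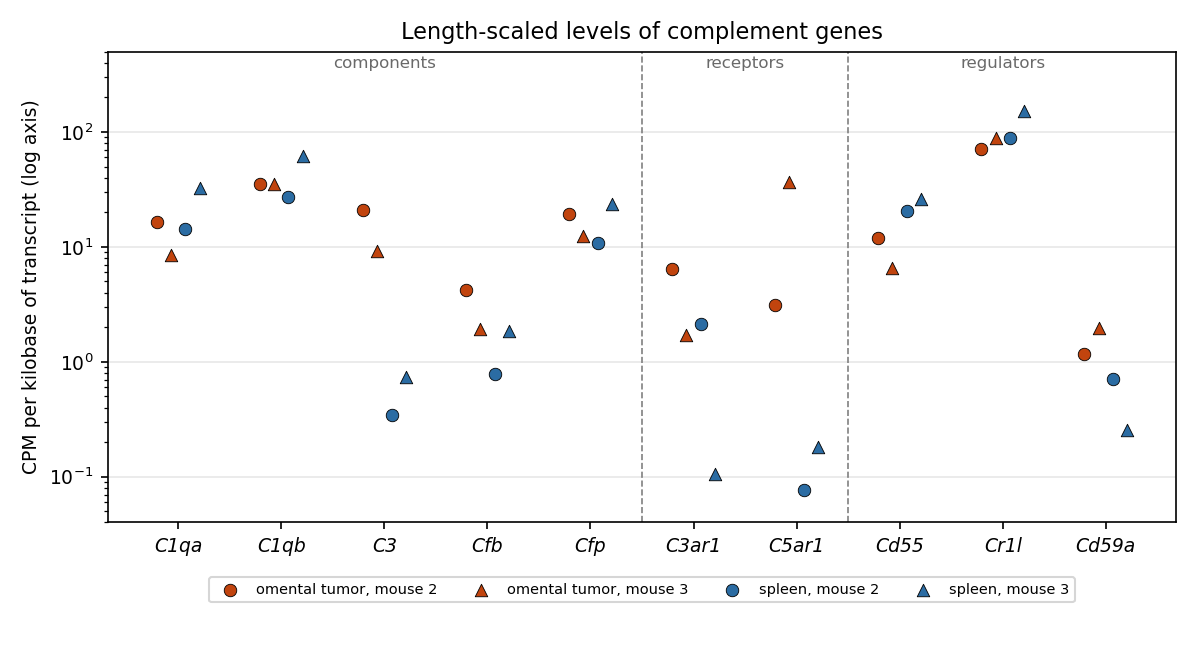
CPM per kilobase of the principal transcript (log axis) for each complement gene and library, with omental tumor in red, spleen in blue, circles for mouse 2 and triangles for mouse 3. Cr1l is highest in every library, and C5ar1 moves from under 0.2 in spleen to 37.0 in omental tumor of mouse 3.

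Beside these differences stood differences in markers of other cell types. Foxp3, the sort marker, was present in all libraries at 81.4 to 144 CPM. The summed level of 8 T cell genes, led in CPM by Lck and Cd2, was 3451 and 4218 CPM in omental tumor and 5188 and 8509 CPM in spleen, and that of 5 Treg genes, led by Ctla4 and Tnfrsf18, ran from 2009 to 3364 CPM, with no gene of either list called. In such bulk samples fewer cells of a type and less RNA per cell cannot be told apart.

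The 9 neutrophil genes, led by S100a9 and S100a8, summed to 1402 CPM in omental tumor of mouse 3, against 124 in that of mouse 2 and 97.4 and 63.3 in spleen. This was the library in which C5ar1 was highest. S100a9 stood there at 475 CPM and S100a8 at 412. In omental tumor of mouse 2 they were at 1.58 and 0.131, below both spleen libraries, and C5ar1 was at 7.88 CPM. Other genes of the list were above both spleen libraries in omental tumor of mouse 2. These were Cxcr2 (68.5 CPM against 47.6 and 20.8 in spleen), Csf3r (28.0 against 21.8 and 4.85) and Mmp8 (13.4 against 7.34 and 3.93). So were Ltf (7.09 against 1.17 and 6.31) and Retnlg (3.54 against 2.94 and 0.549). Camp and Ngp lay between the spleen libraries. Of 8 neutrophil genes tested 4 were called higher, and none was at 0 in any library. None of the 8 was called with the replicate block, where S100a8 had a log2 fold change of 1.07 and S100a9 of 1.92, nor without omental tumor of mouse 3, where they turned to -5.86 and -2.47. None was called when either spleen library was left out. The part of neutrophil RNA in the C5ar1 difference was not tested.

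The 9 fibroblast and mesothelium genes, led by Col3a1 and Dcn, summed to 177 CPM in omental tumor of mouse 2 against 15.4 in that of mouse 3 and 13.9 and 6.95 in spleen, and 1 of 5 tested, Col3a1, was called. That call was lost with the replicate block (log2 fold change 2.85), when either spleen library was left out, and without omental tumor of mouse 2 (-0.15). Lum and Wt1 were at 0 in both libraries of mouse 3. Omental tumor of mouse 2 was the library in which C3, Cfb and C3ar1 were highest. The dendritic cell (548 CPM), B cell (85.6) and mast cell (26.5) sums were also highest there. The part of RNA from any of these cell types in the C3, Cfb and C3ar1 levels was not tested.

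The 12 macrophage and monocyte genes summed to 407 and 695 CPM in omental tumor and 172 and 319 CPM in spleen, and 2 of 11 tested, Lyz2 and Cd14, were called higher. Both were also called with the replicate block, but neither without omental tumor of mouse 3 or without spleen of mouse 2, and Cd14 alone without spleen of mouse 3. The median log2 fold change of the list was -0.79. None of the 12 was at 0 in any library, and the part of macrophage RNA in the C1q levels was not tested.

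Of the 8 dendritic cell genes, led by H2-Ab1 and H2-Aa, 2 were called higher, with sums of 548 and 179 CPM in omental tumor and 85.9 and 52.2 in spleen, Flt3 being at 0 in spleen of mouse 3. Neither was called with the replicate block, nor when omental tumor of mouse 2 or either spleen library was left out. The 6 B cell genes, led by Cd79b and Ms4a1, summed to 24.3 to 85.6 CPM with none of 5 tested called. Adipocyte genes (5, led by Lipe and Lep) summed to 4.81 to 16.5 CPM and mast cell genes (6, led by Kit and Fcer1a) to 6.59 to 26.5 CPM, with none called.

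**Figure D4:**
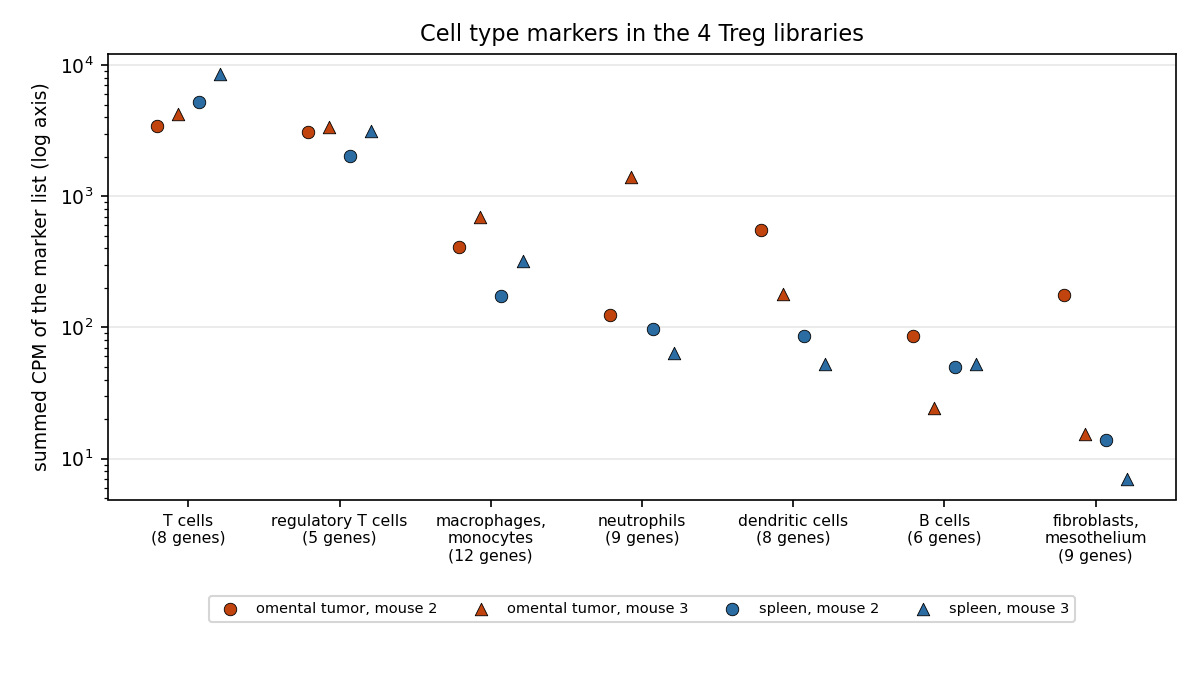
Summed CPM of 7 cell type marker lists (log axis) in each library, with omental tumor in red, spleen in blue, circles for mouse 2 and triangles for mouse 3. The neutrophil sum stands out in omental tumor of mouse 3 (1402 CPM) and the fibroblast and mesothelium sum in omental tumor of mouse 2 (177 CPM).

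The rest of the complement system was covered by a list of 51 further genes found in the files, of which 36 passed the filter and 15 did not. Of the 36, 2 were called higher in omental tumor, Clu and C1qbp, and none lower, beside 1.16% and 0.263% of all genes tested, with a median log2 fold change of 1.12 against 0.13 over all genes tested. Log2 fold changes were positive in 28 and negative in 8, and the share of positive values over all genes tested was not counted. Many of the 36 had low counts. At a minimum count of 50 only 16 of them were tested, and the median over all genes was then -0.02. The median of those 16 was not computed, so no shift of the list is read from the median or the signs of the 36. Both omental libraries were above both spleen libraries in 12 of the 36 (16.4% of all genes tested), and both spleen libraries above both omental ones in 4 (25.4%).

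Clu encodes clusterin, a secreted chaperone that also binds the terminal complex in fluid (chromosome 14, 65968483 to 65981547). It had 107 and 51 counts in omental tumor and 6 and 1 in spleen, or 14.0 and 12.9 CPM against 0.587 and 0.0915 CPM. The omental libraries were alike and both far above spleen, with an increase in both mice. The log2 fold change was 5.28 (SE 1.25, edgeR adjusted p = 0.00331). Clu passed the filter on low counts through the omental libraries alone, so its call is given as a description. The ratio was 23.9 in mouse 2 (10.6 to 66.6) and 141 in mouse 3, where the interval of 24.2 to 5682 rests on 1 spleen read. With the replicate block the log2 fold change was 5.43 (edgeR adjusted p = 0.000205). It missed the threshold in edgeR without omental tumor of mouse 3 (adjusted p = 0.0576), spleen of mouse 2 (0.0887) or spleen of mouse 3 (0.0628), at log2 fold changes of 5.26, 6.91 and 4.72.

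C1qbp encodes a mostly mitochondrial protein that binds the globular heads of C1q (chromosome 11, 70977836 to 70983026). It was at 4.99 and 152 CPM in omental tumor and 10.8 and 2.56 CPM in spleen of mouse 2 and mouse 3. Only omental tumor of mouse 3 was high, and in mouse 2 spleen was 2.16 times higher (1.48 to 3.21). The call (log2 fold change 3.55, SE 0.83, edgeR adjusted p = 0.00288) rested on that library, without which the log2 fold change was -0.49 (adjusted p = 0.884). With the replicate block it was 2.38 (adjusted p = 0.409). Without spleen of mouse 2 or of mouse 3 the adjusted p was 0.158 and 0.388.

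By role, 0 of 10 classical and lectin pathway genes tested, 0 of 6 terminal pathway genes, 1 of 8 receptors and 1 of 12 regulators were called, beside 1.43% of all genes tested. By mean CPM, which does not allow for gene length, the first of the further receptor chains were Itgb2 and Itgam, which pair as complement receptor 3 for fragments of C3. Itgb2 stood at 666 and 232 CPM in omental tumor and 981 and 1545 in spleen (log2 fold change -1.49, SE 0.94, edgeR adjusted p = 0.606). Its partner Itgam stood at 52.6 and 114 CPM against 18.9 and 17.4 (2.20, SE 0.77, edgeR adjusted p = 0.170), so the chain shared by many leukocyte integrins was on the spleen side and the myeloid chain on the omental side. Neither passed the threshold.

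In the classical and lectin group C1qc had the highest mean CPM, followed by Fcna, a ficolin of macrophages that starts the lectin pathway. Fcna stood at 11.3 and 1.77 CPM in omental tumor and 19.3 and 50.5 in spleen (log2 fold change -2.35, SE 0.85, edgeR adjusted p = 0.199). Colec10, a collectin, was at 8.66 and 1.52 CPM against 7.83 and 2.01. It followed the mouse and not the tissue.

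Among terminal pathway genes Hc, which encodes C5, stood at 16.1 and 5.32 CPM in omental tumor and 5.19 and 2.01 in spleen (1.61, SE 0.97, edgeR adjusted p = 0.582). C6 was at 11.2 and 3.54 against 12.8 and 13.6 CPM, and C8g at 4.59 and 2.03 against 6.95 and 7.87, both on the spleen side without a call. Of the further regulators, Csmd3 (36.4 and 18.2 against 30.5 and 16.2 CPM) and Csmd1 (16.1 and 3.80 against 10.6 and 2.01 CPM) were among those with the highest mean CPM. Both overlapped between the tissues and were higher in mouse 2 than in mouse 3 in each tissue. Reads outside any gene feature also took a larger share in mouse 2 (48.9% in omental tumor and 44.2% in spleen). In mouse 3 they took 27.3% and 24.8%. The part of such background reads in these levels, and in that of Colec10, was not tested. Cfd, factor D of the alternative pathway, had 2 reads in omental tumor of mouse 3 and 0 in each other library, and was not tested.

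**Figure D5:**
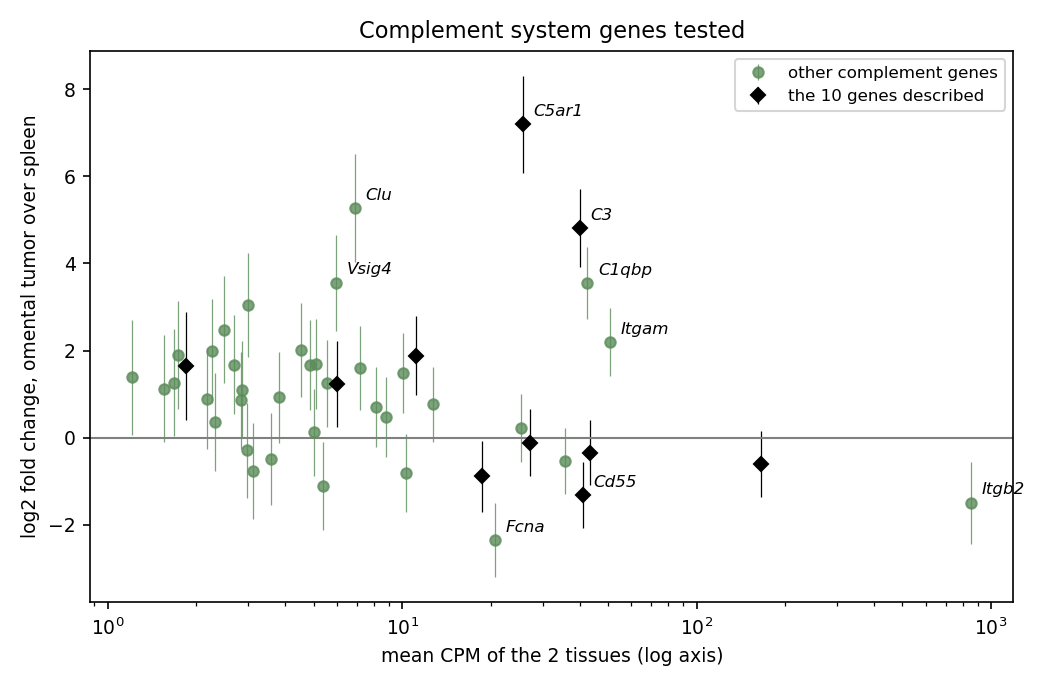
Fitted log2 fold change of omental tumor over spleen (bars: SE) against the mean CPM of the 2 tissues (log axis), for the 10 genes described (black diamonds) and 36 other complement genes (green circles). C5ar1, Clu and C3 have the highest log2 fold changes, at 7.19, 5.28 and 4.81, and Fcna the lowest at -2.35.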

How the data were processed

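The authors deposited raw counts of reads per gene, 1 file for each library. HTSeq, TopHat2, Trim Galore, SAMtools and mouse build mm10 are named in the submitters' processing notes. The versions, the annotation and whether counting used strand are not stated there, and per the labels' protocols the libraries (SMART-seq v4, Nextera XT) do not mark strand, so reads of overlapping genes cannot be told apart. The 5 HTSeq summary entries per file, which took 54.0% to 82.9% of its entries, were left out. Their part outside any feature was larger in both libraries of mouse 2 than in those of mouse 3.

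Testing used edgeR 4.0.16 under R 4.3.3 (filterByExpr at a minimum count of 10, TMM factors, estimateDisp, glmQLFit with legacy=FALSE, glmQLFTest), with tissue alone in the model, 2 residual degrees of freedom and Benjamini-Hochberg adjustment over 16322 genes. The fit estimated infinite prior degrees of freedom, so SE and p do not measure a gene's own spread. SE is the log2 fold change over the square root of F. Ratios within mice have exact (Clopper-Pearson) 95% intervals, computed with scipy 1.17.1. The intervals treat reads as independent and leave out the spread between animals. PCR reads are not independent molecules, so the intervals can be too narrow even for counting error. Gene positions and lengths are from GENCODE M21 (GRCm38, the same assembly as mm10).

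The mouse numbers in the labels mark the same tumor-bearing animal in both tissues and were taken to pair the libraries. Same-mouse libraries deviated from their tissue means with a correlation of 0.234 over genes, which with 2 pairs adds little. The alternatives were other scaling factors, other count filters, DESeq2 1.42.0, limma-voom (limma 3.58.1), the replicate block, a stricter threshold, each library left out and, chosen after seeing the data, the legacy form of glmQLFit.

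The 10 genes and all lists were chosen with earlier results of these data known. Besides the 10, the text names other complement genes that were called, the 3 most abundant by mean CPM in each role, and the 2 most abundant of each marker list (macrophages and monocytes, neutrophils, dendritic cells, B cells, fibroblasts and mesothelium, adipocytes, mast cells, T cells, Tregs). 1 gene within this rule is not reported here.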

Additional observations from a re-analysis of the deposited data

How the results depend on the processing

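C3 and C5ar1 kept a positive log2 fold change under all 13 alternatives, between 4.07 and 5.59 and between 4.43 and 8.39. Each was called under 10 of them and missed at a minimum count of 50, without any filter, and with 1 library left out (spleen of mouse 2 for C3, omental tumor of mouse 3 for C5ar1). C3ar1, Cfb, Cd55, Cd59a and C1qa kept their sign wherever they were tested and were called under none, Cfb and Cd59a being filtered out at a minimum count of 50. Cfp turned under 5 alternatives, C1qb under 2 and Cr1l under 1. The median log2 fold change of all genes was 0.13, and 0.62 with upper-quartile factors or 0.40 with library gene totals. Against that shift Cd55 was -0.84 and -1.01.

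The 233 genes called became 28 with library gene totals alone, 0 with no filter (1903 at an unadjusted p under 0.05 in edgeR), 4 at a minimum count of 50, 370 with DESeq2 and 146 at an adjusted p under 0.01. The prior degrees of freedom were 11.3, 9.72 and 8.54 in the first 3. They were 261 with the replicate block, and 60 to 273 with each library left out. The 2 other complement genes called became 0 with library gene totals, no filter, a minimum count of 50 or limma-voom, at which 6, 7, 4 and 6 had an unadjusted p under 0.05. They became 1 (Clu) with the replicate block, and 0 to 2 with each library left out. With DESeq2 Clu and Itgam were called, with upper-quartile factors Itgam and with RLE factors Vsig4 joined Clu and C1qbp. The replicate block changed no call among the 10 genes. Low counts limit Cd59a (5 to 16 in each library) and, through spleen counts of 5 or fewer, the size of the C5ar1 and mouse 3 C3ar1 ratios.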
